A study of Mus musculus with 2 samples.

Results

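The nuclear genes for mitochondrial protein import and mitochondrial membrane shape were examined for allele-specific expression (ASE) in F123 mouse embryonic stem cells (mESCs). The genes were chosen by a rule on their names, which used no measured value but was set with earlier results of these data known. They comprise all Timm, Tomm, Chchd, Grpel and Micos genes together with Mfn1, Mfn2, Opa1, Samm50, Immt, Pam16 and Dnm1l. In all, 44 of the 29833 genes in the table met this rule, in 60 of its 37178 gene records. The table lists each gene once per transcript biotype. Some genes thus appear with a protein-coding record and again with a long noncoding RNA (lncRNA) record, as 16 of the members did. Timm8a1, Timm17b and Apool lie on chromosome X, which the table of chromosomes 1 to 19 does not cover, and were not analysed here.

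F123 is a single male hybrid line whose paternal chromosomes are CAST and whose maternal chromosomes are S129. Both alleles were therefore read in the same cells, and there was no other treatment, time or genotype. Total RNA came from 2 biological replicates, which the deposited table pools, so each value below is 1 number per allele and the spread between replicates could not be computed. The cells had been grown on fibroblast feeders and then without feeders before harvest. All 8 mESC markers examined were expressed, at 14.4 to 381 TPM (a level scaled by transcript length and library size). The 7 fibroblast feeder markers were at 0.0363 to 3.06 TPM, with Thy1 (3.06) and Col1a2 (1.01) reaching a TPM of 1. Among 5 genes of primed cells and early lineages, 4 reached a TPM of 1, led by Sox17 at 21.4 and Gata6 at 8.81 TPM. The part of these cells in the results was not tested.

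Most mitochondrial proteins are made in the cytosol and enter through the translocase of the outer membrane (TOM). Proteins with a cleavable presequence then pass through the translocase TIM23 and are pulled inward by a motor around mitochondrial Hsp70, whereas carrier proteins are escorted by small TIM chaperones to the translocase TIM22. The sorting and assembly machinery (SAM) inserts beta-barrel proteins into the outer membrane, a disulfide relay traps small cysteine-rich proteins in the intermembrane space, and the MICOS complex holds the cristae junctions of the inner membrane. Mitofusins and Opa1 fuse the outer and inner membranes, and Dnm1l, the dynamin-related protein Drp1, divides mitochondria. Naive mESCs are known for small, rounded mitochondria with few cristae.

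Reads over a variant base were assigned to their parental chromosome, and the CAST share is the percentage of such allelic reads that carried the CAST base. Over the whole table there were 8230836 CAST and 8112857 S129 reads (50.4% CAST), in 18632 records with at least 8 allelic reads. A two-sided exact binomial test of equal shares was run on each of these records and adjusted over all of them by the Benjamini-Hochberg method. A record was called ASE if its log2 fold change (CAST over S129 reads) was at least 1 in either direction, its adjusted p was at most 0.05 and its TPM was at least 1. Intervals are exact 95% Clopper-Pearson intervals. They and the standard errors cover counting error only, and since a read can be counted at several variants they can understate even that.

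Of the 60 member records, 55 records of 41 genes on 17 chromosomes had a TPM of at least 1 and allelic reads and were tested. Another 3 expressed records held no variant (Timm8b and the lncRNA records of Mfn2 and Timm50), and 2 were below a TPM of 1 (Tomm20l and Chchd6). ASE was called in 3 of the 55 tested member records (5.45%), against 14.1% of all 15935 tested records. The calls were both records of Chchd5, toward CAST, and Timm10, toward S129. The 2 CAST records compare with a background of 8.33%, and the 1 S129 record with 5.78%. Both Chchd5 records hold the same reads, so the calls represent 2 genes. Counted with 1 record per gene, 2 of 41 members (4.88%) were called, against 14.1% of all genes so counted, and with at least 100 allelic reads, 2 of 49 members (4.08%), against 11.9%. No test of the list was made, because its members were chosen with results of these data known.

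At any fold, 26 member records (47.3%) had an adjusted p of at most 0.05, close to the background of 48.3%. They were split into 14 on the CAST side and 12 on the S129 side. These calls assume counting error alone. With an assumed intra-gene correlation of 0.01, a spread of shares beyond counting error, 2 members had an adjusted p of at most 0.05, both of them records of Chchd5, against 14.3% of all tested records. No tested record of the table with less than a 1.72-fold difference was called under that assumption, and the p-values below that belong to members other than Chchd5 are past the threshold under counting error only. Imbalances of the members were smaller in size than those of the table. The median absolute log2 fold change was 0.24 in member records and 0.36 in all tested records, and the CAST share lay between 40% and 60% in 44 of the 55 members (80.0%), against 67.4% of all tested records. The member records were also deeper, with a median of 768 allelic reads (12 to 6850) against 397. Among records with at least 100 reads, the median absolute log2 fold change was 0.24 in members and 0.31 in all tested records.

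No common direction was seen. The median CAST share was 50.0% in member records (interquartile range 46.9 to 54.1%), against 50.1% in all tested records (44.2 to 56.8%). There were 26 member records above 50%, 27 below and 2 at 50%. Summed over the tested members there were 34643 CAST and 35110 S129 reads, or 49.7% CAST.

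**Figure D1:**
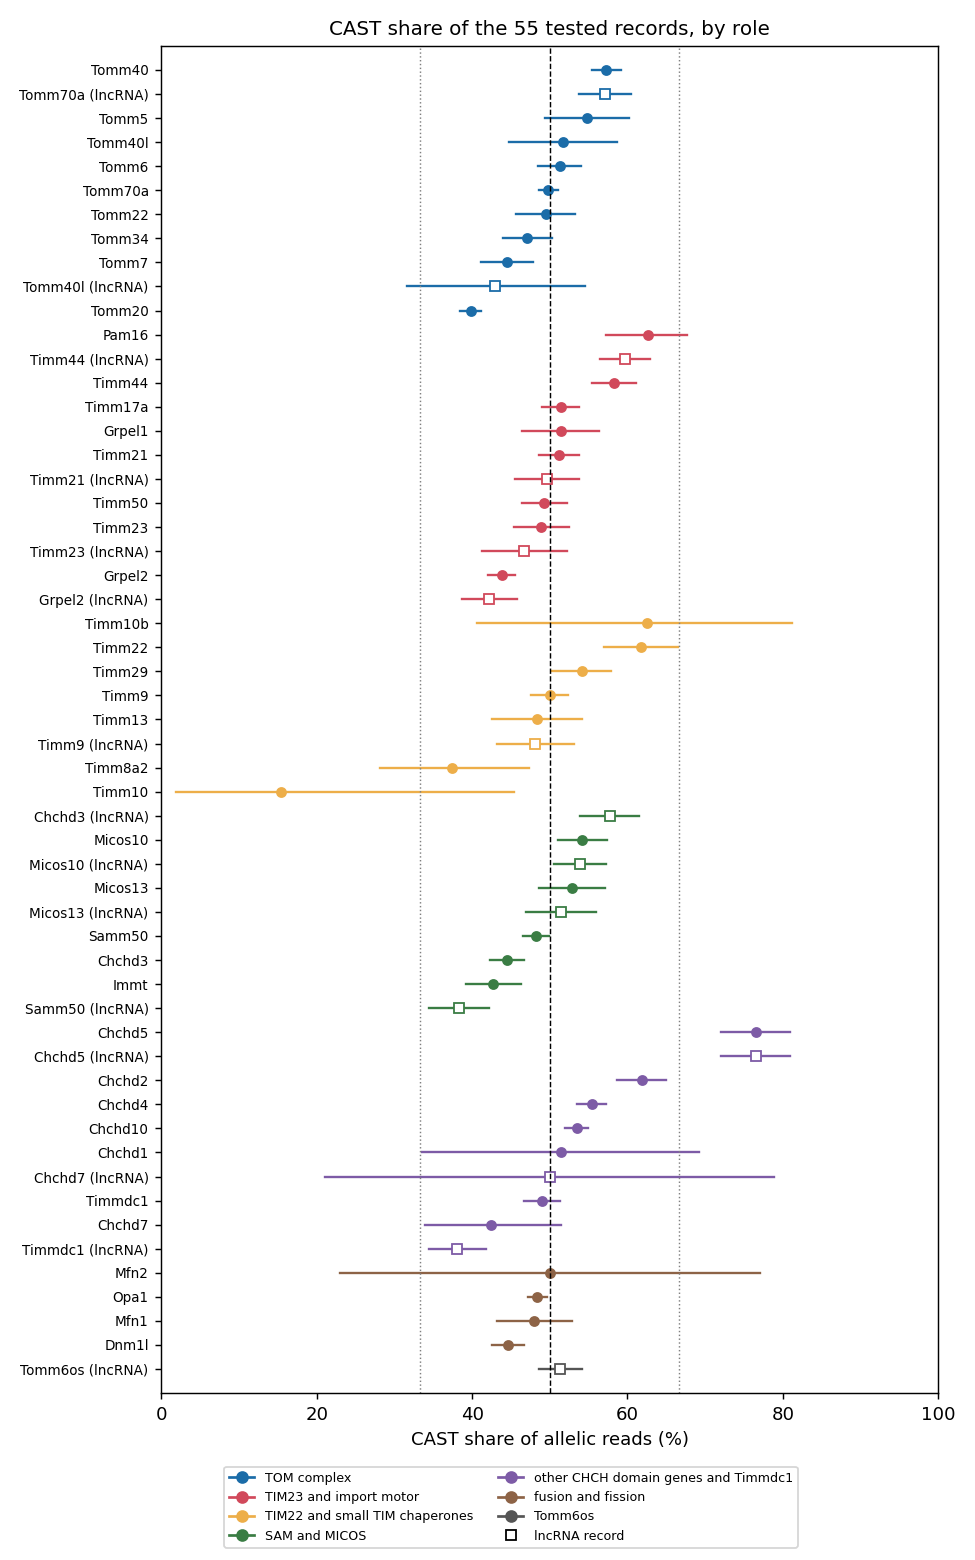
CAST share of allelic reads (x axis, %) in each of the 55 tested member records, grouped by role and sorted within a role. Points are shares over the pooled replicates, bars are exact 95% intervals, open squares are lncRNA records, the dashed line marks equal shares and the dotted lines the 2-fold minimum. Both Chchd5 records (76.6%) and Timm10 (15.4%) lie beyond the dotted lines, and 44 records lie between 40% and 60%.

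Chchd5, which encodes a small protein of the CHCH (coiled-coil-helix-coiled-coil-helix) family, was the gene with the clearest imbalance. Its protein-coding record (ENSMUSG00000037938, plus strand of mm10, chr2:129129700-129134134) had 279 CAST and 85 S129 reads, or 76.6% CAST (72.0 to 80.9%). The log2 fold change was 1.71 (SE 0.18, adjusted binomial p = 4.47e-24). These reads came from 5 variants, 3 in exons and 2 in introns. The lncRNA record lies within the protein-coding one and had the same 279 CAST and 85 S129 reads, so it gives no second measurement. Chchd5 was well expressed, at 37.7 TPM in the protein-coding and 39.4 TPM in the lncRNA record, and no other annotated gene overlapped it. Of 17 tested records of other genes within 500 kb, 1 was CAST and 0 were S129. The call held with an intra-gene correlation of 0.01 (adjusted p = 1.52e-05) and was lost at 0.05 (adjusted p = 0.248), where 3.06% of all tested records were called and none below a 4.62-fold difference.

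Proteins of the CHCH family carry pairs of cysteines spaced by 9 residues, and proteins of the small TIM family pairs spaced by 3. The relay oxidizes these cysteines as the proteins enter the intermembrane space. The coding stretch from the first to the last cysteine of 1 such twin arrangement is shown for Chchd5 and for 3 members that were read deeply, with the codons of its 4 cysteines in capitals. In Chchd5 it runs from codon 58 to codon 89 and covers 4 of the 8 cysteine codons. Sequences are from the GENCODE M21 transcripts, 5′ to 3′ on the coding strand.
Chchd5, chromosome 2: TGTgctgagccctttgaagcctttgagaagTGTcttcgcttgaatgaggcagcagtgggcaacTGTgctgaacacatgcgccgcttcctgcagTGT
Chchd4, chromosome 6: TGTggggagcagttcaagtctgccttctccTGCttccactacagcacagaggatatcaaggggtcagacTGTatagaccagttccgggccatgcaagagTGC
Chchd2, chromosome 5: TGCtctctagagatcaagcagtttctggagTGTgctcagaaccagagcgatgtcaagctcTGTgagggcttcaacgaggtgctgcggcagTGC
Chchd10, chromosome 10: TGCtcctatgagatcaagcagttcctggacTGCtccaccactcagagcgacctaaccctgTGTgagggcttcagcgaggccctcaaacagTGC
The paired arrangement was found in 7 of the 8 Chchd genes. The transcript read for the remaining one, Chchd3, gave no whole reading frame. Chchd5 had 8 cysteine codons and 4 pairs of this spacing in its 110 codons. In Chchd10 and Chchd2 there were 4 cysteine codons and 3 such pairs each. Chchd10 and Chchd2, a pair of paralogs, shared the spacing of 9 codons between their cysteine pairs, where Chchd5 had 10 and Chchd4 had 12.

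Timm10 was the only member called toward S129 and was also among the least covered. It encodes a small TIM chaperone that escorts carrier proteins across the intermembrane space together with Timm9. Its record (ENSMUSG00000027076, plus strand, chr2:84827384-84830113) had 2 CAST and 11 S129 reads at 1 intronic variant, or 15.4% CAST (1.92 to 45.4%). The log2 fold change was −2.46 (SE 1.11) with an adjusted binomial p of 0.0482. Although its level was 38.1 TPM, no exonic variant was read, and the call was lost with an intra-gene correlation of 0.01 (adjusted p = 0.146), while the record falls below a minimum of 20 allelic reads. Its partner Timm9 had 848 CAST and 849 S129 reads at 91 variants, 50.0% CAST (47.6 to 52.4%). The cysteine stretches of Timm10, Timm9 and a further pair of partners, the Timm8 and Timm13 chaperones, are shown with the cysteine codons of each pair in capitals.
Timm10, chromosome 2: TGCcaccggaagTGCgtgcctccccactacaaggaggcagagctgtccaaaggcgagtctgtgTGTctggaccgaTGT
Timm9, chromosome 12: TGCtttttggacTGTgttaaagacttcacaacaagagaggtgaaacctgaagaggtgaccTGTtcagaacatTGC
Timm8a2, chromosome 14: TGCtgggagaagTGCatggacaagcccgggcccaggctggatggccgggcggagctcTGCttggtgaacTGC
Timm13, chromosome 10: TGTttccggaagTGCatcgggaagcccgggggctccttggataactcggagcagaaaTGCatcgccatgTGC
All 6 small TIM genes (Timm8a2, Timm8b, Timm9, Timm10, Timm10b and Timm13) had this arrangement, with 14 to 16 codons between the pairs.

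Among the TOM genes, which form the entry gate, none of the 9 tested was ASE and 3 had an adjusted p of at most 0.05 at any fold in the record with most reads, against 14.1% and 51.2% of all 12067 tested genes counted in the same way. These were Tomm20 and Tomm7 on the S129 side and Tomm40 on the CAST side. Tomm20, a receptor for presequences, had 2275 CAST and 3438 S129 reads at 107 variants, or 39.8% CAST (38.5 to 41.1%). Its log2 fold change of −0.60 (SE 0.04, adjusted binomial p = 3.35e-52) was the most firmly measured imbalance of the group, yet below the 2-fold minimum. Tomm40, the channel itself, went the other way with 1478 CAST and 1102 S129 reads (57.3% CAST, adjusted binomial p = 1.15e-12, log2 fold change 0.42, SE 0.06). Under counting error alone, the subunits of 1 complex thus lay on both sides. With an intra-gene correlation of 0.01 neither was called, with an adjusted p of 0.184 in Tomm20 and 0.432 in Tomm40.

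The small subunit Tomm7 had 396 CAST and 494 S129 reads (44.5%, adjusted binomial p = 0.00329). Tomm70a, a receptor for carrier proteins and the TOM gene with most reads, had 3223 CAST and 3244 S129 reads (49.8%, 48.6 to 51.1%). Its interval was among the narrowest of the members and included equal shares. The central receptor Tomm22 had 337 CAST and 344 S129 reads (49.5%), all at 1 exonic variant. Tomm6, Tomm5, Tomm34, a cytosolic co-chaperone, and Tomm40l, a paralog of Tomm40, had CAST shares of 51.3, 54.8, 47.1 and 51.7%, and none of them passed the test. Summed over the group with 1 record per gene, there were 9146 CAST and 10044 S129 reads (47.7%), and single genes ranged from 39.8% to 57.3%.

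Tomm6 and the noncoding Tomm6os lie on opposite strands and share 574 bases of Tomm6. Their shares were both 51.3%, with 670 CAST and 637 S129 reads in Tomm6 and 678 CAST and 643 S129 reads in Tomm6os. The libraries kept the strand of the RNA, but whether allelic counting used it is not given in the sources used here, so the allelic reads of overlapping genes cannot be told apart. Frs3 and Prickle4 also overlap Tomm6os, and Gm21981 overlaps both records. Timm21 lies entirely within Fbxo15 on the opposite strand, which had 2029 CAST and 1993 S129 reads (50.4%).

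In the TIM23 group, which imports presequence proteins into the inner membrane and matrix, 3 of the 8 genes had an adjusted p of at most 0.05 (background 51.2%) and none was ASE (14.1%). Pam16, a regulator of the motor that holds a J-like domain, had 218 CAST and 130 S129 reads, or 62.6% CAST (57.3 to 67.7%), with a log2 fold change of 0.75 (SE 0.16, adjusted binomial p = 1.2e-05, or 0.129 with an intra-gene correlation of 0.01). This was the member nearest to the fold minimum among those with at least 100 reads. However, 99.2% of its record lies within Glis2 on the opposite strand, a transcription factor gene with 357 CAST and 213 S129 reads and the same share of 62.6%, at 11.2 TPM against 8.67 TPM for Pam16. The allelic reads of Pam16 and Glis2 cannot be told apart.

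Timm44, which tethers the motor to the channel, was also on the CAST side, with 684 CAST and 490 S129 reads (58.3%, 55.4 to 61.1%, adjusted binomial p = 9.02e-08). Grpel2 was on the S129 side, with 1459 CAST and 1874 S129 reads (43.8%, 42.1 to 45.5%, adjusted binomial p = 5.4e-12, log2 fold change −0.36, SE 0.05). Its paralog Grpel1 had 208 CAST and 197 S129 reads (51.4%, 46.4 to 56.3%), an interval that does not overlap that of Grpel2. Both encode nucleotide exchange factors of mitochondrial Hsp70, and Grpel1 had the higher level, at 33.2 TPM against 14.0 TPM for Grpel2. The channel genes Timm17a and Timm23, the receptor Timm50 and Timm21 had CAST shares of 51.4, 48.9, 49.3 and 51.2%, and none passed the test. The group sum was 5174 CAST and 5247 S129 reads, or 49.6% CAST.

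Apart from Timm10, the TIM22 group held 2 genes that passed the binomial test below the fold minimum, so that 3 of its 7 genes did, against 51.2% of all genes. Both calls were lost with an intra-gene correlation of 0.01, with an adjusted p of 0.154 in Timm22 and 0.286 in Timm8a2. Timm22, the channel for carrier proteins, had 264 CAST and 163 S129 reads, or 61.8% CAST (57.0 to 66.5%), with a log2 fold change of 0.70 (SE 0.14, adjusted binomial p = 5.29e-06). Timm8a2, a chaperone gene with a low level of 3.73 TPM, had 40 CAST and 67 S129 reads, or 37.4% CAST (28.2 to 47.3%), with a log2 fold change of −0.74 (SE 0.29, adjusted binomial p = 0.0268). These lay on opposite sides. Timm29, a subunit of the human TIM22 complex, had 371 CAST and 315 S129 reads (54.1%, adjusted binomial p = 0.0726). Timm13 had 148 CAST and 158 S129 reads (48.4%). Timm10b had 15 CAST and 9 S129 reads at 1 variant (62.5%, 40.6 to 81.2%), the same reads that stand for the overlapping Gm45799, and this depth could not show a difference of that size. Timm8b, at 71.5 TPM, held no variant. The group sum of 1688 CAST and 1572 S129 reads (51.8%) covers single shares of 15.4% to 62.5%.

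The remaining CHCH genes and Timmdc1 had the highest summed CAST share of the 6 role groups, at 5828 CAST and 4851 S129 reads (54.6%, 53.6 to 55.5%). This interval covers the counting error of the summed reads and not the spread between genes. Single genes ranged from 42.5% to 76.6%, and Chchd10 held the most reads. Besides Chchd5, the genes Chchd2, Chchd4 and Chchd10 passed the binomial test, all on the CAST side, or 4 of 7 genes against 51.2% of all genes. With an intra-gene correlation of 0.01 the call of Chchd5 held and the others were lost (adjusted p = 0.117 in Chchd2). Chchd2, whose product is linked to respiratory chain function, had 593 CAST and 365 S129 reads, or 61.9% CAST (58.7 to 65.0%), with a log2 fold change of 0.70 (SE 0.10, adjusted binomial p = 1.4e-12). Its whole record lies within Phkg1 on the same strand, listed at 0.781 TPM. A processed pseudogene, Chchd2-ps, lies on chromosome 4, so reads may be shared with it. The study's methods kept only variants in regions of high mappability, and such sharing was not tested.

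Chchd4, the oxidoreductase at the head of the disulfide relay, had 1454 CAST and 1171 S129 reads (55.4%, 53.5 to 57.3%, adjusted binomial p = 1.9e-07). Chchd10 had 2513 CAST and 2186 S129 reads (53.5%, 52.0 to 54.9%, adjusted binomial p = 8.64e-06), and 42.9% of its record overlaps Mmp11, a gene on the opposite strand with 880 CAST and 762 S129 reads (53.6%). For both, the measured imbalance was small and its detection rested on deep coverage. Chchd1, a subunit of the mitochondrial ribosome, had 17 CAST and 16 S129 reads despite a level of 106 TPM, and Chchd7 had 57 CAST and 77 S129 reads (42.5%, 34.0 to 51.4%). Timmdc1, an assembly factor of respiratory complex I, had 915 CAST and 951 S129 reads (49.0%).

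In SAM and MICOS, no gene was ASE (background 14.1%) and 3 of 5 passed the binomial test (background 51.2%). Samm50, the channel of SAM, had 1600 CAST and 1720 S129 reads (48.2%, adjusted binomial p = 0.0785). Of the MICOS genes, Immt, which encodes the core subunit mitofilin, had 330 CAST and 443 S129 reads (42.7%, 39.2 to 46.3%, adjusted binomial p = 0.000197). Chchd3, its partner, was on the same side with 875 CAST and 1092 S129 reads (44.5%, adjusted binomial p = 4.94e-06). Micos10 was on the CAST side with 510 CAST and 431 S129 reads (54.2%, adjusted binomial p = 0.0254), and Micos13 had 293 CAST and 261 S129 reads (52.9%, 48.6 to 57.1%). The other CHCH gene of MICOS, Chchd6, had 183 CAST and 136 S129 reads (57.4%) but was below the TPM minimum at 0.776. Its paralog Chchd3, also low, was at 2.88 TPM.

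No fusion and fission gene was ASE (background 14.1%), and 2 of the 4 passed the binomial test (background 51.2%). Opa1, which fuses the inner membrane, held more allelic reads than any other member, with 3317 CAST and 3533 S129 reads at 143 variants. Its CAST share of 48.4% (47.2 to 49.6%, log2 fold change −0.09, SE 0.03, adjusted binomial p = 0.0221) passed the test at a very small fold. Dnm1l had 1030 CAST and 1278 S129 reads (44.6%, 42.6 to 46.7%, adjusted binomial p = 1.29e-06), and 21.5% of its record overlaps the antisense gene Gm49521. The mitofusin Mfn1 had 208 CAST and 225 S129 reads (48.0%, 43.2 to 52.9%). Mfn2 had 7 CAST and 7 S129 reads at 1 variant, and its interval of 23.0 to 77.0% shows no more than that a large imbalance was not seen at this depth. The Mfn2 record covers 1 transcript with 97 codons, against 741 in the Mfn1 transcript.

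**Figure D2:**
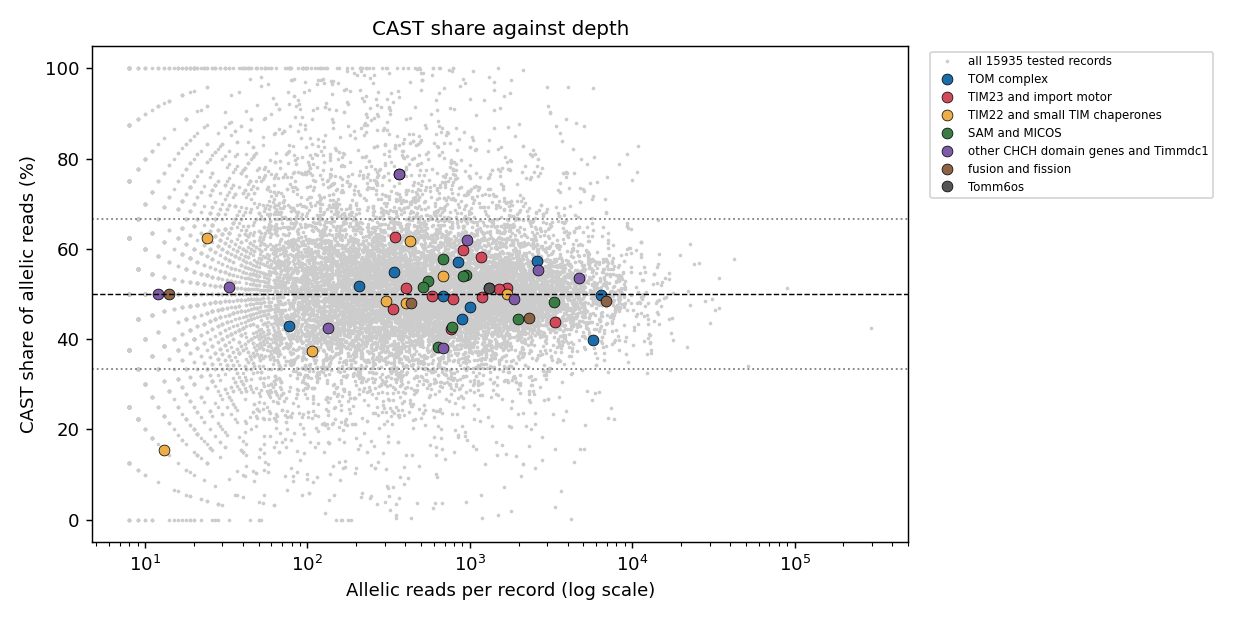
CAST share of allelic reads (y axis, %) against allelic reads per record (x axis, log scale) for the 55 tested member records (colored by role) over all 15935 tested records (gray). The dashed line marks equal shares and the dotted lines the 2-fold minimum. Chchd5 stands apart at 364 reads, Timm10 has 13 reads, and the deepest member, Opa1, lies at 48.4%.

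Genes with a protein-coding and a lncRNA record allowed parts of a gene to be compared. The lncRNA record lay within the protein-coding one in 11 of 16 genes, overlapped it in part in 4 and lay apart in 1 (Mfn2). In 9 of the nested pairs, subtracting the lncRNA record left reads at other variants of the protein-coding record, so both sets of reads came from separate positions of 1 gene. In 3 of these 9 pairs the intervals of the lncRNA record and the remaining variants did not overlap (33.3%), close to 27.9% of all 2539 such pairs in the table. With at least 100 reads on both sides, the intervals lay apart in 3 of 7 member pairs and in 36.5% of 1520 pairs. Such gaps are therefore not particular to the members. Intervals of single read counts can be too narrow, and no p is given for these pairs.

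Timmdc1 showed the largest such gap among pairs with over 100 reads on both sides. Its lncRNA record had 260 CAST and 424 S129 reads at 35 intronic variants (38.0%, 34.4 to 41.8%, adjusted binomial p = 2.41e-09, or 0.124 with an intra-gene correlation of 0.01, log2 fold change −0.71, SE 0.11). The remaining 41 variants of the gene had 655 CAST and 527 S129 reads (55.4%, 52.5 to 58.3%), on the other side of equal shares. The 49.0% of the whole protein-coding record was therefore the sum of parts with opposite shifts. At all 76 variants of Timmdc1 the non-reference base was on S129, as at 94.8% of variants in genes within 500 kb, against 11.1% over all tested records. The part of this feature in the shares was not tested.

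Samm50 had a similar split. Its lncRNA record covers a short stretch inside the gene and had 243 CAST and 392 S129 reads (38.3%, 34.5 to 42.2%, adjusted binomial p = 2.13e-08, or 0.139 with an intra-gene correlation of 0.01, log2 fold change −0.69, SE 0.12). The remaining 46 variants had 1357 CAST and 1328 S129 reads (50.5%, 48.6 to 52.4%). Tomm70a differed in the other direction, with 485 CAST and 365 S129 reads in its lncRNA record (57.1%, 53.7 to 60.4%) and 2738 CAST and 2879 S129 reads at the remaining variants (48.7%, 47.4 to 50.1%). This lncRNA record was at 108 TPM, against 39.5 TPM for the protein-coding record, but over exons alone the order turned, with 30.4 TPM in the lncRNA and 41.3 TPM in the protein-coding record.

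The other nested pairs did not separate. Timm44 had 59.7% CAST in the lncRNA record and 53.2% at the remaining variants, Grpel2 had 42.2% and 44.2%, Timm21 had 49.6% and 52.2%, and Timm9 had 48.1% and 50.5%. In Micos13 the values were 51.5% (47.0 to 55.9%) in the lncRNA record and 70.7% (54.5 to 83.9%) at the remaining variants, which held 29 CAST and 12 S129 reads. In Micos10 only 1 variant remained, with 23 CAST and 15 S129 reads. Chchd3, whose records overlap in part, had opposite sides in its records, with 392 CAST and 287 S129 reads in the lncRNA record (57.7%, 53.9 to 61.5%), against 44.5% (42.3 to 46.7%) in the protein-coding one. The lncRNA records of the other partly overlapping genes were at 46.7% (Timm23), 42.9% (Tomm40l) and 50.0% (Chchd7), the last with 6 reads for each allele.

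**Figure D3:**
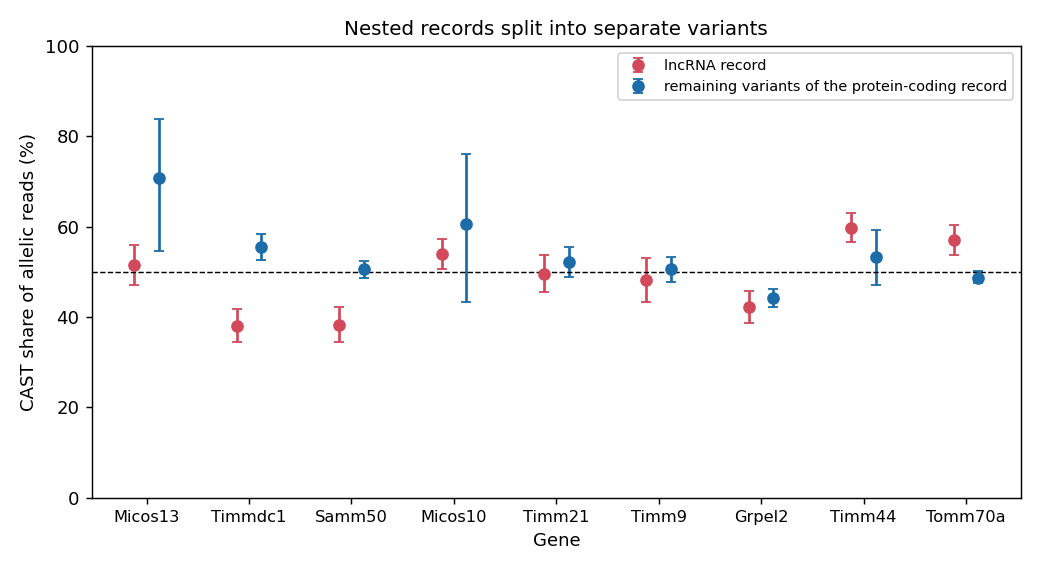
CAST share of allelic reads (y axis, %) in the lncRNA record (red) and at the remaining variants of the protein-coding record (blue) of 9 genes whose lncRNA record is nested. Points are shares, bars are exact 95% intervals and the dashed line marks equal shares. The intervals do not overlap in Timmdc1, Samm50 and Tomm70a.

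The members were expressed more often and at higher levels than the table as a whole. A TPM of at least 1 was reached by 41 of the 43 protein-coding member records (95.3%), against 52.9% of all 20620 protein-coding records. The median over these 43 records was 21.1 TPM, against 6.70 TPM over the 10902 protein-coding records with a TPM of at least 1. Tomm6 had the highest level at 317 TPM, at or above 99.2% of expressed records, followed by Chchd10 at 278 TPM and Tomm22 at 162 TPM. The lncRNA record of Tomm70a (108 TPM), Chchd1 (106 TPM) and Timm13 (74.7 TPM) came next. Over exons alone the Tomm70a lncRNA record was lower, at 30.4 TPM, against 128 TPM in Chchd1 and 91.1 TPM in Timm13.

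Levels differed widely within a complex. In the TOM group they ran from 0.506 TPM in Tomm20l, a paralog of Tomm20, to 317 TPM in Tomm6, with a median of 39.1 TPM. The genes of TIM23 and its motor were much closer to each other, from 8.67 TPM (Pam16) to 33.2 TPM (Grpel1). The TIM22 group ran from 3.73 TPM (Timm8a2) to 74.7 TPM (Timm13), SAM and MICOS from 0.776 TPM (Chchd6) to 37.3 TPM (Micos13), and the other CHCH genes with Timmdc1 from 6.34 TPM (Timmdc1) to 278 TPM (Chchd10). Fusion and fission genes were lowest, with a median of 4.89 TPM and a maximum of 11.4 TPM in Dnm1l. Each level belongs to 1 transcript of its gene and may not stand for the others. The Mfn2 transcript, at 1.83 TPM, had 97 codons, against 741 in that of Mfn1. Mfn2 is not the only such case. The protein-coding records of Timm23, Tomm22, Timm17a and Immt stand for transcripts of 78, 89, 97 and 188 codons, for their allelic reads as well. Since the replicates are pooled, no error can be given for these levels. Reads over introns as well as exons entered them.

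**Figure D4:**
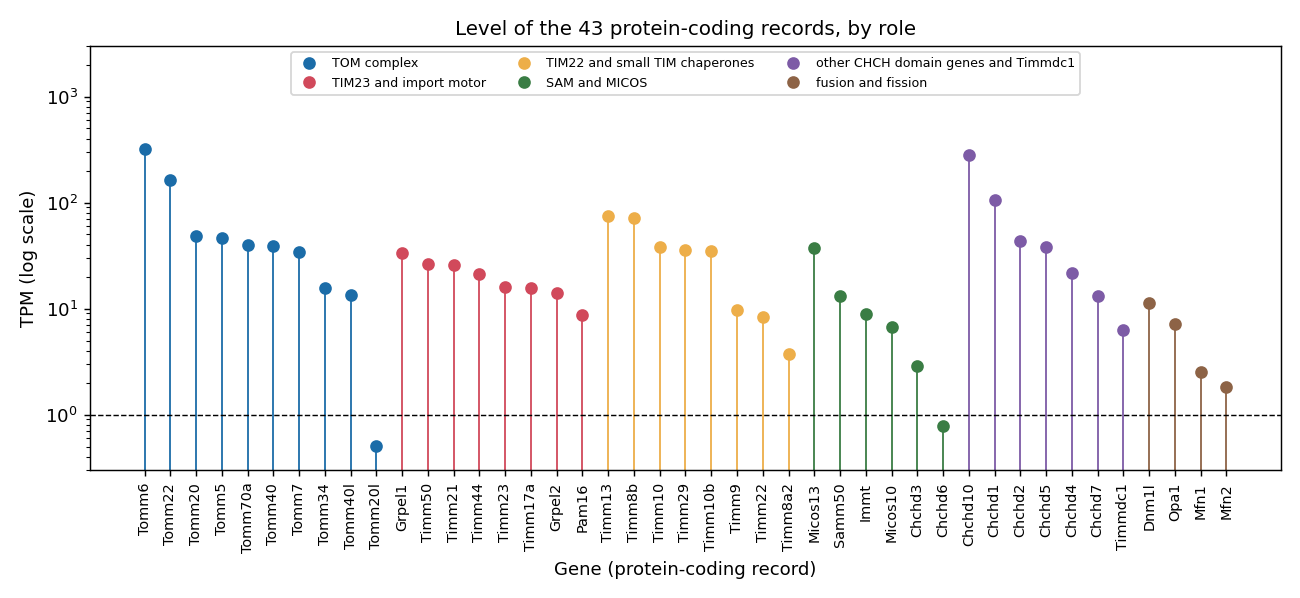
Level (y axis, TPM on a log scale) of the 43 protein-coding member records, grouped by role and sorted within a role. Points are the deposited values of the pooled replicates and the dashed line marks a TPM of 1. Tomm6 (317), Chchd10 (278) and Tomm22 (162) are highest, and Tomm20l (0.506) and Chchd6 (0.776) lie below the line.

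Promoters were inspected for a feature that the choice of genes did not use. RefSeq promoters (GRCm38.p6, 250 bases before to 50 after the start) were matched for 38 of the 44 genes. ETS factors such as GABPA and the factor NRF1 are known regulators of nuclear genes for mitochondrial proteins, and 5 strings of letters were searched on both strands. The string CCGGAAG, a core of ETS motifs, was found in 17 of the 38 genes (44.7%), against 22.1% of 8504 expressed protein-coding genes and 9.93% of all 27025 genes with a promoter. The longer CCGGAAGTG, which contains it, was found in 6 genes (15.8%), against 5.57% and 2.25%. For NRF1, TGCGCA was found in 9 genes (23.7%), against 17.1% and 8.79%, GCGCATGC, which shares letters with TGCGCA but does not contain it, in 3 genes (7.89%), against 6.68% and 3.05%, and the full palindromic NRF1 string, which contains GCGCATGC, in 1 gene (2.63%), against 2.54% and 1.07%. A match is a description of the sequence and not a binding site.

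Chchd5 held CCGGAAG more than once before its start, as did Timmdc1, Micos10 and, with overlapping matches, Tomm22, which were not called ASE. Timm10, called toward S129, held both CCGGAAG and the longer string in its promoter. Tomm70a held the longer string, as did Timm23, Timm29, Timm8a2 and Timmdc1. A further match in Chchd5, not shown, was the reverse complement, with its last base 125 bases before the start. The part of these strings in the allelic shares was not tested. The windows are shown on the plus strand, with CCGGAAG in capitals, at chr2:129129587-129129623, chr2:129129619-129129655 and chr16:57121619-57121655.
Chchd5, first window: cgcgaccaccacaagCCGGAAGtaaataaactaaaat
Chchd5, second window: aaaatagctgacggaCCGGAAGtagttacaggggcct
Tomm70a window: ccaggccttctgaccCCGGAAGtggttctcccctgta
The last base of the string lay 92 and 60 bases before the start in Chchd5 and 74 bases before it in Tomm70a. No sequence of the CAST or S129 allele was read here, so the strings are those of the reference.

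Genes of the same pathways outside the naming rule were counted from a separate list of processing peptidases, Hsp70 and its partners, outer membrane assembly factors, relay, insertase, fission, prohibitin and porin genes. Of 57 tested records of 36 genes on this list, 5 were ASE (8.77%, against 14.1% of all tested records), 5 of them CAST (background 8.33%) and 0 S129 (5.78%), and the median CAST share was 50.3%. Gfer, the sulfhydryl oxidase that recharges Chchd4 in the relay, had 134 CAST and 31 S129 reads (a log2 fold change of 2.11, SE 0.29). Mipep, a presequence peptidase, had 849 CAST and 403 S129 reads (a log2 fold change of 1.07, SE 0.09), just past the minimum at 1.93 TPM. Letm1, an inner membrane ion exchange protein, had 50 CAST and 21 S129 reads (a log2 fold change of 1.25, SE 0.38) at 1.87 TPM. The other calls were lncRNA records, with 88 CAST and 16 S129 reads in Mief1, a receptor for Dnm1l, and 255 CAST and 61 S129 reads in Dnajc11, an outer membrane partner of MICOS. With an assumed intra-gene correlation of 0.01, 4 records of this list were called ASE, against 12.1% of all tested records. With 0.05, 0 were called, against 3.06%. No tested record below a 4.62-fold difference was called there, and of these 5 calls only Mief1 lay above that fold.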

How the data were processed

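Total RNA-seq libraries of F123 mESCs were made from 2 biological replicates. Reads were mapped by the authors to mm10 with variant-aware STAR (version 2.7.2c, per the submitters' processing notes), duplicates were removed with Picard, and allelic reads were counted with GATK ASEReadCounter. The deposited allelic counts are the authors' totals per gene, pooled across its variants and the replicates. The study's methods set a minimum coverage per variant of 20 reads, while some records of the table, Timm10 among them, hold fewer. For the deposited TPM values, the authors used HTSeq counts over exons and introns, scaled by length and library size, for 1 transcript per gene and biotype. Columns with the authors' own p-values, log2 fold changes and classes were not used.

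Records were found by gene name, and each was tested with a two-sided exact binomial test in scipy (version 1.17.1), with Benjamini-Hochberg adjustment over all 18632 records with allelic reads. Depth ranged from 12 to 6850 allelic reads per tested member record, which sets the width of the intervals. The calling procedure was run on simulated counts with counting error only, which does not test how calls hold under a wider spread. Standard errors follow from the counts. The start and end of all 43 protein-coding member transcripts matched GENCODE M21. Neighbors are records of other genes within 500 kb. Where a group of genes is summed, the record with most allelic reads stands for its gene. Given in full are all ASE members, the 6 members below the fold minimum with the largest imbalance among those with at least 100 reads, the member with most reads of each role group, the 6 highest levels, and genes with more than 1 record. Tomm40, Timm44, Immt, Dnm1l and other members with a small imbalance were described after their values were seen. Members, lists and tests were chosen with earlier results of these data known. Alternatives changed the minimum of reads, variants and TPM, the share assumed under no difference, an added intra-gene correlation, the thresholds and the records counted. Python (version 3.11.15), numpy (2.4.6), pandas (2.3.3) and matplotlib (3.10.9) were used.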

Additional observations from a re-analysis of the deposited data

How the results depend on the processing

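All alternatives used the same pooled counts, so none of them could reverse the direction of a record. Of the counts and medians reported, 51 values stayed within their limits and 19 moved. A count moved if it changed by more than 1.5-fold or to 0, and a median if it left the interval around its main value. In settings that kept the same tested records the median share could not move, so the tally does not measure stability. The S129 call of Timm10 was the least stable, and 0 S129 members remained with at least 20 or at least 100 allelic reads, at least 3 variants, an adjusted p of at most 0.01, or an assumed intra-gene correlation of 0.01. With a correlation of 0.05, 0 ASE, 0 CAST and 0 S129 members and 0 records of the other pathway list were called, against 3.06% of all tested records, and the adjusted p was 0.248 in Chchd5 and 0.672 in Timm10. No tested record below a 4.62-fold difference was called there, so this setting could not call Chchd5. The 26 members past the adjusted p at any fold became 2 at a correlation of 0.01 and 0 at 0.05, a count added after seeing the data, and the 6 named members just below the 2-fold minimum were all lost at 0.01 (adjusted p of 0.117 to 0.286). At a 1.5-fold minimum, 10 members were called (18.2%, against 25.8% of all tested records), 5 CAST and 5 S129, together with 14 records of the other list. These 10 include the 6 named members just below the 2-fold minimum and Tomm20. With protein-coding records only, or with 1 record per gene (an alternative chosen after seeing the data), 1 CAST member was called. The other list held 3 ASE records of 49 at a TPM of at least 5, against 11.7% of all tested records. It held 3 of 57 at 3-fold (background 7.56%) and 3 of 36 with protein-coding records only (12.8%). With 1 record per gene it held 2 of 36 (14.1%). No paired analysis was possible because the table pools both replicates, and for the same reason no replicate could be left out. Depth limits Mfn2, Timm10, Timm10b, Chchd1 and the lncRNA records of Chchd7 and Tomm40l, the 6 tested members under 100 reads.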
